A study of Mus musculus with 24 samples.

Results

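Mice lacking the amino acid sensor GCN2 were compared with wild-type mice on a leucine-sufficient diet, in livers taken at circadian time 15 (CT15), by sequencing of polyadenylated RNA. All libraries labelled GCN2 KO, Control, CT15 and all labelled WT, Control, CT15 were used, which gave 3 KO and 3 WT libraries of the 24 in the study, and the comparison ran over all 15031 listed genes. The KO is a whole-body knockout. No strain, age, sex or knockout allele is given in these sources. All 24 mice were housed singly, kept on a 12-h light-dark cycle, given 2 days of control diet, and then either stayed on it (Control) or moved to a diet without leucine (LeuD) at dark onset. Constant darkness began 24 h later and lasted 8 days before death at CT03 or CT15, so Control mice of both genotypes were also in free-running conditions. The other 3 conditions (Control at CT03, LeuD at CT15, LeuD at CT03) also hold 3 KO and 3 WT mice each and share no library with the comparison described here.

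Eif2ak4 encodes GCN2, a kinase that uncharged transfer RNA switches on and that phosphorylates the translation initiation factor eIF2. Phosphorylated eIF2 lowers general translation and favours translation of the transcription factor ATF4, whose targets, the integrated stress response genes, include enzymes and transporters of amino acid metabolism. The question of the comparison is what GCN2 does in the liver when dietary leucine is not limiting, at a time of day when nocturnal mice normally feed.

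Depth in the 6 libraries was 39038224 to 44883434 reads over the genes listed in any of the tables used. Values are given as normalized counts (reads over a size factor of the library), and changes are the mean difference of log2(normalized count + 1), KO minus WT, with its SE. Called means that limma gave the gene an adjusted p below 0.05. The replicates are separate mice by their labels. The liver label was borne out by hepatocyte markers, all 14 of which were detected in each library, with a summed level of 143700 to 158500 RPM (reads scaled to a common library total) in KO and 105200 to 141300 RPM in WT. A pair of libraries stood apart from their groups. KO replicate 1 had pancreas acinar transcripts at 752.8 RPM, against 42.08 and 51.7 RPM in the other KO mice and 9.873 to 33.92 RPM in WT. It also had the lowest level of the 6 libraries in 19 of 20 male-biased liver genes, 20 of 22 genes of fatty acid synthesis and 22 of 22 of cholesterol synthesis, and Cdkn1a, a cell cycle inhibitor, at 4937 normalized counts (KO replicates 2 and 3: 278.5 and 125; WT: 237 to 308). WT replicate 1 held skeletal muscle transcripts, which were picked after their values were seen: muscle actin Acta1 was at 44.7, 31.9 and 34.7 in KO and 3877, 37.3 and 44.0 in WT, and the muscle creatine kinase Ckm at 2.79, 0 and 1.05 in KO and 1428, 2.07 and 0 in WT.

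Eif2ak4 itself did not separate the genotypes. Its normalized counts were 339.7, 469 and 438 in KO and 349.8, 332 and 298 in WT (0.34 ± 0.17, adjusted p = 0.791). The KO range thus enclosed the highest WT value. Reads were summed over the whole gene, so this value cannot show the loss of an exon and does not check the genotype labels.

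Of the 15031 genes, 12 were called (0.0798%), 6 higher (0.0399%) and 6 lower (0.0399%) in KO. Of these 12, 9 lie within 10 Mb of a gene of the major histocompatibility complex (the H2 genes, on chromosome 17), 1 lies within 10 Mb of Eif2ak4 on chromosome 2, and 2 lie at the Eif3j2 locus. No called gene lay elsewhere or had no position, and there 720 of 14367 genes had an unadjusted p under 0.05. The Eif3j2 window was centred on a called gene, and the H2 window was chosen with earlier results of these data known. That no call lies outside the windows is thus partly set by how they were drawn. The adjusted p in the authors' deposited table was under 0.05 for 48 genes (0.319%), including all 12, and edgeR called the same 12. The median change over all genes was -0.004. The number called depended on each mouse: it was 9, 8 and 6 without KO replicates 1, 2 and 3, and 9, 3 and 6 without WT replicates 1, 2 and 3. Eif3j2, H2-Eb1 and the pseudogene H2-T-ps passed in all 6 of these fits, H2-T22 and H2-T23 in 5, H2-T10 in 4, H2-Q5 in 3, Disp2 in 2, H2-Q7, Gm7030 and Gm3650 in 1, and Btnl2 in 0.

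**Figure D1:**
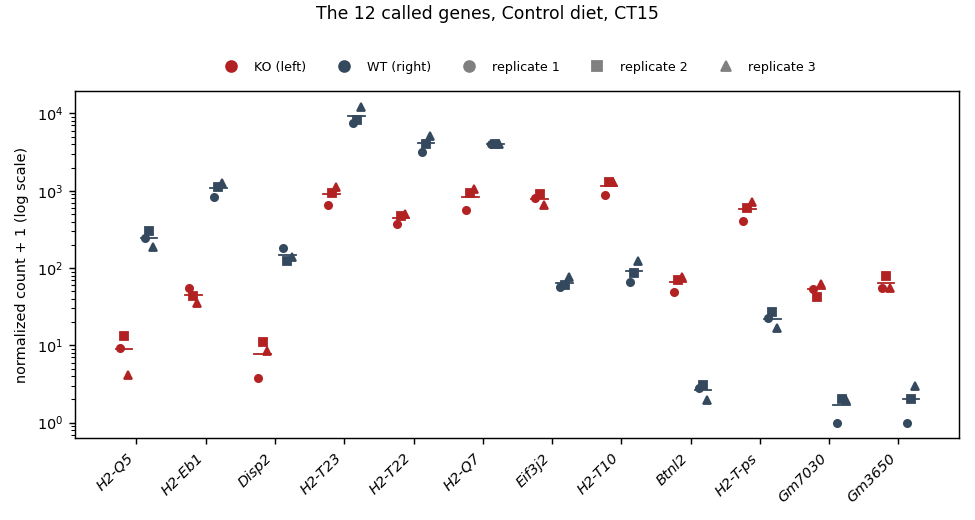
Normalized count + 1 (log axis) of the 12 called genes in each library, KO (red, left) and WT (dark, right), with a bar at the group mean of 3 mice. The 6 genes on the left were lower in KO and the 6 on the right higher, and no KO value overlaps a WT value for any of them.

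MHC class I molecules present peptides from inside the cell to CD8 T cells on nearly all cells, hepatocytes included, and class II molecules present peptides taken up by macrophages, dendritic cells and B cells. In the mouse, H2-K1 and H2-D1 are classical class I genes, the H2-Q, H2-T and H2-M genes are non-classical class I genes, and H2-Aa, H2-Ab1 and H2-Eb1 encode class II chains. Of the 24 measured genes of a list of MHC genes, 5 were called lower (0.0399% of all genes) and 1 higher (0.0399% of all genes). The list was chosen with earlier results of these data known, so its shares are not independent support. An unadjusted p under 0.05 was reached by 13 on the lower side and 3 on the higher side, 66.7% of the list against 5.49% of all genes, and the median change was -0.51. Without KO replicate 1 the counts called were also 5 and 1 (0.0399% and 0.02% of all genes).

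Promoters of H2-K1, H2-D1, H2-T22, H2-T23 and H2-Eb1 are shown here as examples, because genes with shared promoter elements differed in opposite directions. Other MHC genes with a listed promoter, such as H2-Q10 and H2-T-ps, are not shown. Each printed sequence is the 300 bases from 250 before to 50 after the start of transcription, from RefSeq on GRCm38.p6. It runs 5′ to 3′ on the gene's strand. Capitals mark the kappa-B site of MHC class I promoters (the first run of capitals in H2-K1), the interferon response core TTTCACTT and the inverted CCAAT box CTGATTGG (or its reverse complement), searched on both strands. These were present in 0.0304%, 1.6% and 4.1% of 32851 promoters, and the 3 motifs do not overlap one another where marked. The sequences are at chr17:34000298-34000597 (minus strand) for H2-K1, which has 2 listed starts of which the first is shown, chr17:35262844-35263143 (plus) for H2-D1, chr17:36042693-36042992 (minus) for H2-T22, chr17:36032652-36032951 (minus) for H2-T23 and chr17:34305617-34305916 (plus) for H2-Eb1.
H2-K1: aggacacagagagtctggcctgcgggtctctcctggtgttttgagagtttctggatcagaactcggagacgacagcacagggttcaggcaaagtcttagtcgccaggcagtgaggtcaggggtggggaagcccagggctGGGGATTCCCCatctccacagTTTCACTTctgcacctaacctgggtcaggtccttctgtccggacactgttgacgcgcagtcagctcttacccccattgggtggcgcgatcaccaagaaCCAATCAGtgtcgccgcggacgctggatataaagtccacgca
H2-D1: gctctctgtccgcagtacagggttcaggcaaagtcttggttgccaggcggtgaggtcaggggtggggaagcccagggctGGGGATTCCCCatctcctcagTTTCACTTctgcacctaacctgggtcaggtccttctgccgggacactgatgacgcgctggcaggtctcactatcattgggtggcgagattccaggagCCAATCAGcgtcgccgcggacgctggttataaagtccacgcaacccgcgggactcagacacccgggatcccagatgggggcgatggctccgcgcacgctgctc
H2-T22: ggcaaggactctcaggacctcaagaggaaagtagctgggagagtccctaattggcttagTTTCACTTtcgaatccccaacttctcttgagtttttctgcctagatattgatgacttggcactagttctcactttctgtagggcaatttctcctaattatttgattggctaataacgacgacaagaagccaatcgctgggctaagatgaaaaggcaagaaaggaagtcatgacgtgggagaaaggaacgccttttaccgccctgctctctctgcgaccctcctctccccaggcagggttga
H2-T23: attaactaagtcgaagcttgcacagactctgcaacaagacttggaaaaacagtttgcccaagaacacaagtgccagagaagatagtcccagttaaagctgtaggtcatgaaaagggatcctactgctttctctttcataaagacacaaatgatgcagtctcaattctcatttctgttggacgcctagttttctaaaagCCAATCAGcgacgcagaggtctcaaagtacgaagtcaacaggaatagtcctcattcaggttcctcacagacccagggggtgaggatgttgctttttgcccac
H2-Eb1: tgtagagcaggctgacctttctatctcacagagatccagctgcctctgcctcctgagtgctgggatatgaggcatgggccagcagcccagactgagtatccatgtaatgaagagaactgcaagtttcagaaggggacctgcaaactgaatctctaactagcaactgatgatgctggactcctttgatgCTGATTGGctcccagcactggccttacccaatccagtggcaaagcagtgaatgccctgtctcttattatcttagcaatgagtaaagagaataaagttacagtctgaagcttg

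The H2-K1 and H2-D1 promoters hold all 3 motifs, 1 match each. H2-T22 holds only the interferon response core, and H2-T23 and H2-Eb1 only the CCAAT box. The missing motifs are missing from these windows alone, and no statement on any factor follows from them.

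Among the classical class I genes, H2-K1 and H2-D1 differed in opposite directions. H2-K1 had 16952, 21317 and 24072 normalized counts in KO and 54626, 60066 and 63819 in WT (-1.53 ± 0.18, adjusted p = 0.0622), so each KO mouse was below each WT mouse without the gene being called. In the authors' deposited table its adjusted p was 1.17e-12. H2-D1 had 45636, 41205 and 45111 in KO and 27552, 30315 and 32511 in WT (0.55 ± 0.15, adjusted p = 0.791), also with no overlap. B2m, the light chain that all class I molecules share, was at 43006, 58679 and 61454 in KO and 49597, 51518 and 58511 in WT (0.02 ± 0.20, adjusted p = 0.983), and its groups overlapped.

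Of the 12 called genes, 5 are non-classical class I genes, of which 4 fell. H2-T23, which encodes Qa-1, a ligand of NK cell receptors, fell to 644, 944 and 1111 in KO, against 7420.2, 8168 and 12156 in WT (-3.36 ± 0.26, adjusted p = 0.00752). H2-T22, whose product is recognised by some gamma-delta T cells, fell to 369, 465 and 501 in KO, against 3209.7, 4009 and 5135 in WT (-3.19 ± 0.20, adjusted p = 0.00308). H2-Q7, which encodes Qa-2, fell to 557, 921 and 1039.8 in KO, against 4044, 3996 and 3976 in WT (-2.30 ± 0.23, adjusted p = 0.0242). In all 3 the highest KO mouse was far below the lowest WT mouse. H2-Q5 fell to 8.38, 12.1 and 3.16 in KO, against 247, 298 and 188 in WT (-4.91 ± 0.45, adjusted p = 0.0183). H2-Q6 did not pass, at 297, 861 and 624 in KO and 2500.3, 3026 and 2173 in WT (-2.23 ± 0.37, adjusted p = 0.323). Nor did the abundant H2-Q10, at 16425, 51142 and 58472 in KO and 92328, 98323 and 91485 in WT (-1.36 ± 0.46, adjusted p = 0.791).

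Other genes of the same cluster rose. The class I gene H2-T10 rose to 874, 1288 and 1312 in KO, against 65.5, 86.1 and 122 in WT (3.67 ± 0.27, adjusted p = 0.00638). The pseudogene H2-T-ps rose to 402, 601 and 725 in KO, against 21.5, 25.9 and 15.7 in WT (4.70 ± 0.29, adjusted p = 0.00307). Gm7030 rose to 53.0, 40.7 and 62.1 in KO, against 0, 1.04 and 0.978 in WT (5.04 ± 0.50, adjusted p = 0.0242). It spans H2-T-ps and H2-T10 in the GRCm38 annotation. Strand use in counting is not stated, so reads of the 3 may not be told apart. H2-Q2 had 113, 82.6 and 108 in KO and 11.7, 22.8 and 28.4 in WT (2.29 ± 0.36, adjusted p = 0.261). These sources do not say how multi-mapping reads were counted, and the H2 class I genes are near-identical in parts, so the value of each single gene is uncertain.

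In class II, H2-Eb1 stood out from its neighbours. It fell to 54.0, 42.9 and 34.7 in KO, against 829, 1125 and 1269.9 in WT (-4.58 ± 0.23, adjusted p = 0.0021). The other class II chain genes did not pass: H2-Aa was at 1062, 1242 and 1047 in KO and 666, 1029 and 1018 in WT (0.33 ± 0.20, adjusted p = 0.791). H2-Ab1 was at 948, 958 and 899.8 in KO and 952, 1383 and 1457 in WT (-0.41 ± 0.18, adjusted p = 0.791). Cd74, the invariant chain, was at 2051, 2294 and 2291 in KO and 2310.2, 3402 and 3391 in WT (-0.44 ± 0.18, adjusted p = 0.791). H2-DMb1, a further class II gene, had 54.9, 69.4 and 48.4 in KO and 105, 143 and 167 in WT (-1.24 ± 0.25, adjusted p = 0.631), without overlap. The change was -0.80 for H2-Ob, -0.36 for H2-DMa and 0.69 for H2-DMb2, and none of these was called. Btnl2, a butyrophilin-like gene next to the class II genes, rose to 47.5, 69.4 and 75.8 in KO, against 1.79, 2.07 and 0.978 in WT (4.64 ± 0.41, adjusted p = 0.017). Markers of Kupffer cells and macrophages, which express class II genes, had lower values too: 13 of 14 had a negative change, 7 with an unadjusted p under 0.05 on the lower side (3.05% of all genes) and 0 called, and their sum was 506.5 to 608.8 RPM in KO and 758 to 1020 RPM in WT. Among them the complement gene C1qa was at 2109.9, 1698 and 2219 in KO and 3465, 2769.9 and 2773 in WT (-0.58 ± 0.16, adjusted p = 0.791). Lymphocyte markers summed to 8.529 to 10.43 RPM in KO and 9.217 to 12.6 RPM in WT. The part of macrophage content in these results was not tested, and in whole liver fewer cells of a type and less RNA per cell cannot be told apart.

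The genes that load class I molecules lie in or near the same region. Of 11 measured antigen processing genes, 0 were called, 10 had a negative change, and 4 had an unadjusted p under 0.05, all lower (3.05% of all genes), with 4 lower also without KO replicate 1 (2.73% of all genes). Tapbp, or tapasin, which holds class I at the peptide transporter, had 1379, 1706 and 1890.2 in KO and 2805, 3214 and 2996 in WT (-0.87 ± 0.15, adjusted p = 0.337). Tap1, a subunit of that transporter, had 239, 467 and 475 in KO and 996, 1055 and 793 in WT (-1.32 ± 0.28, adjusted p = 0.686). Psmb9, an immunoproteasome subunit, had 139, 365 and 434 in KO and 865, 784 and 729 in WT (-1.49 ± 0.40, adjusted p = 0.791). The groups did not overlap for any of these 3 (13.3% of all genes), and KO replicate 1 was the lowest mouse in each.

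Genes near Eif2ak4 had low p-values more often than genes elsewhere, in both directions. Within 10 Mb of it 31 of 151 measured genes had an unadjusted p under 0.05 (20.5%), 16 higher and 15 lower, against 720 of 14367 (5.01%) in the genome outside the 3 regions. Within 10 Mb of an H2 gene the count was 69 of 398 (17.3%), 21 higher and 48 lower. Around Eif3j2 it was 5 of 115 (4.35%), all higher. The H2 and Eif3j2 windows were chosen with earlier results of these data known. On the chromosome 2 side the called gene was Disp2, a homologue of the fly gene dispatched, which fell to 2.79, 9.91 and 7.37 in KO, against 182, 122 and 138 in WT (-4.38 ± 0.44, adjusted p = 0.0242). Capn3, a calpain protease best known in muscle, had 1.86, 2.20 and 6.32 in KO and 94.2, 34.2 and 41.1 in WT (-3.68 ± 0.57, adjusted p = 0.261), with its highest value in the WT mouse that held muscle transcripts. Spg11, a gene of lysosome renewal, had 168, 302 and 212 in KO and 622, 625 and 603 in WT (-1.48 ± 0.22, adjusted p = 0.214).

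**Figure D2:**
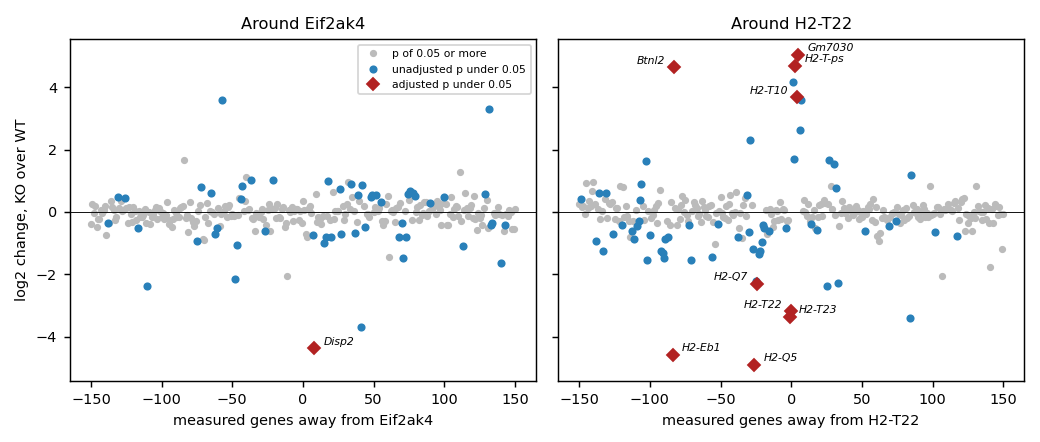
Log2 change (KO over WT) of each measured gene against its place in gene order, up to 150 measured genes to either side of Eif2ak4 (left) and of H2-T22 (right). Grey points have a p of 0.05 or more, blue points an unadjusted p under 0.05, and red diamonds are called genes, of which 1 lies in the left panel and 9 in the right.

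Several of the neighbours of Eif2ak4 are well expressed in liver. Chp1, a calcineurin-like partner of ion transport proteins, had 11021, 9133 and 10020 in KO and 14738, 15835 and 19358 in WT (-0.72 ± 0.16, adjusted p = 0.686). Rmdn3, a tether between mitochondria and the endoplasmic reticulum, had 1766, 2699 and 2483 in KO and 3978, 4003 and 3896 in WT (-0.80 ± 0.17, adjusted p = 0.686). Ganc, an alpha-glucosidase, had 1156, 1017 and 1103 in KO and 700.4, 757 and 768 in WT (0.56 ± 0.12, adjusted p = 0.683). None of the 3 was called and none overlapped between the groups. Groups without overlap were found for 1992 of all genes (13.3%).

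Eif3j2, one of a pair of near-identical genes for the j subunit of initiation factor eIF3, rose to 795, 906 and 644 in KO, against 56.5, 59.1 and 76.3 in WT (3.59 ± 0.20, adjusted p = 0.0021). The neighbouring pseudogene Gm3650 rose to 54.0, 78.2 and 54.7 in KO, against 0, 1.04 and 1.96 in WT (5.10 ± 0.53, adjusted p = 0.0291). The paralog Eif3j1, on chromosome 2 within 10 Mb of Eif2ak4, had 2035, 1890.1 and 1773 in KO and 2476, 2304 and 2591 in WT (-0.37 ± 0.12, adjusted p = 0.791). All 3 KO mice were below all 3 WT mice for it. How multi-mapping reads were counted is not stated, so reads of the paralogs may not be told apart. The value of each paralog is thus uncertain, in this and in the other conditions. Spg11 and Eif3j1 overlap on opposite strands in the GRCm38 annotation. Strand use in counting is not stated, so their reads may not be told apart fully.

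The genotype comparison in the other 3 conditions rests on other mice. Of the 12 called genes, 11 could be compared on Control at CT03, 7 on LeuD at CT15 and 8 on LeuD at CT03, and each of those had the same sign there. On LeuD at CT15 all 7 were called (1.82% of all genes), on LeuD at CT03 3 were called (0.0414% of all genes) and 5 had an unadjusted p under 0.05 (13.6% of all genes), and on Control at CT03 1 was called (0.0136% of all genes) and 7 had an unadjusted p under 0.05 (8.18% of all genes). Eif3j2 was called in all 4 conditions: on Control at CT03 it differed by 3.22 ± 0.15 (adjusted p = 0.000628), on LeuD at CT15 by 3.29 ± 0.22 (adjusted p = 0.000418) and on LeuD at CT03 by 3.48 ± 0.17 (adjusted p = 0.000563).

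At CT03 several H2 genes had smaller genotype differences. Counts in the next sentences are reads on 1 scale over all 24 libraries. H2-Eb1 had 463, 768 and 435 in KO and 1718, 999.8 and 1101 in WT on Control at CT03 (-1.21 ± 0.27, adjusted p = 0.529). On LeuD at CT15 it had 60.0, 69.2 and 33.2 in KO and 1216, 1359 and 1597 in WT (-4.71 ± 0.27, adjusted p = 0.00015). On LeuD at CT03 it had 725, 832 and 452 in KO and 1503, 1213 and 1038 in WT (-0.93 ± 0.24, adjusted p = 0.238). The KO mice at CT15 thus had the lowest values on both diets, and at CT03 each KO mouse was below each WT mouse of the same diet.

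The difference between the times was tested directly. On Control, the genotype effect at CT15 minus that at CT03 was called for 4 of 14470 genes (0.0276%), all lower: H2-Eb1 (-3.38 ± 0.39, adjusted p = 0.0275), H2-T22 (-2.70 ± 0.34, adjusted p = 0.0275), H2-Q5 (-4.40 ± 0.56, adjusted p = 0.0275) and H2-T23 (-2.99 ± 0.39, adjusted p = 0.0275). An unadjusted p under 0.05 was reached by 734 genes (5.07%). H2-T22 had 2169, 3706 and 1889.7 in KO at CT03 and 3722, 3227 and 3505 in WT at CT03, where the groups overlapped. The count was 4 without KO CT03 replicate 3, 2 without KO CT03 replicate 2 or WT CT15 replicate 1, 1 without WT CT03 replicate 1 or any of the 3 KO CT15 mice, and 0 without KO CT03 replicate 1, without WT CT03 replicates 2 or 3, or without WT CT15 replicates 2 or 3, with 563 to 646 genes under an unadjusted p of 0.05 in these last 5 fits of limma.

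The KO mice at CT03 on Control were not alike at these genes. H2-T-ps was at 484, 28.8 and 396 in KO and 29.2, 11.01 and 18.3 in WT, and H2-T10 at 734, 73.5 and 688 in KO and 81.7, 62.4 and 71.9 in WT. KO replicate 2 of that group thus had WT levels of both genes, and it also had the highest H2-T22 and H2-K1 (3706 and 55996 normalized counts) of the 3. Its Eif3j2, at 534, was within the KO range. This library keeps the genotype label of its group throughout.

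**Figure D3:**
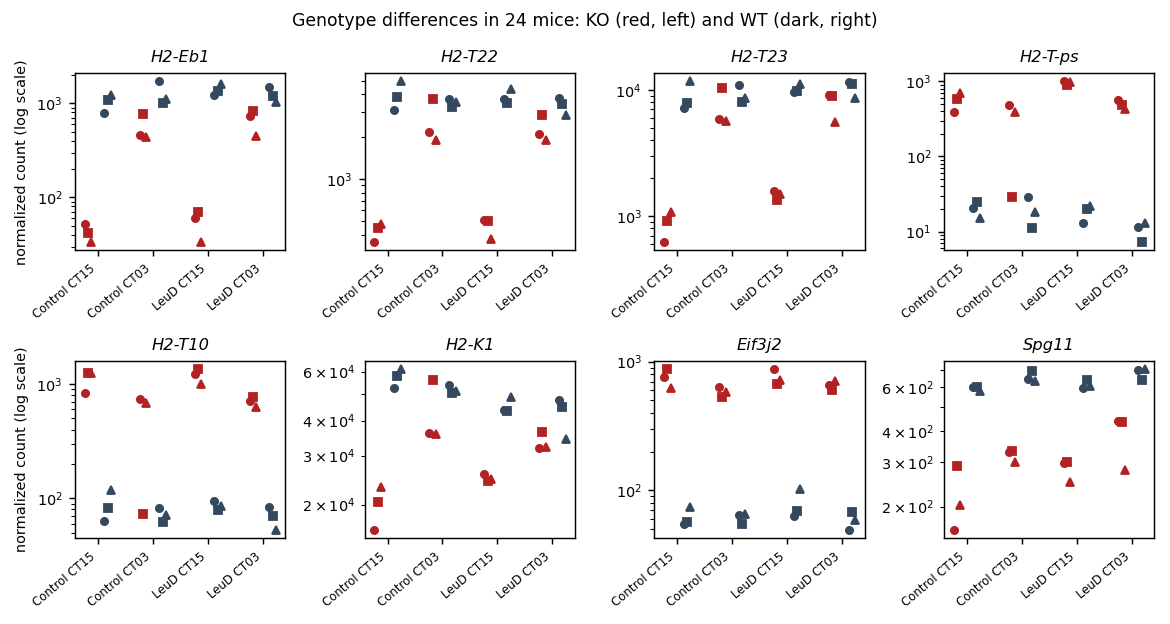
Normalized counts (log axis, 1 scale over 24 libraries) of 8 genes in 4 conditions, KO (red, left) and WT (dark, right), with circles, squares and triangles for replicates 1, 2 and 3. H2-Eb1, H2-T22 and H2-T23 were lowest in KO at CT15 on both diets, 1 KO mouse on Control at CT03 lay among WT mice for H2-T-ps and H2-T10, and Eif3j2 and Spg11 separated the genotypes in all 4 conditions.

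Genes that respond to interferon were read as a group of 36, all measured. On Control at CT15 all 36 had a negative change, with a median of -0.61 against -0.004 over all genes. None was called by limma, and 13 had an unadjusted p under 0.05 on the lower side, 36.1% of the list against 3.05% of all genes. KO replicate 1 was the lowest of the 6 libraries for 28 of them, and without it 9 were below an unadjusted p of 0.05 on the lower side (2.73% of all genes) and the median was -0.36. Oas1a, an antiviral RNA sensor, had 58.6, 48.4 and 78.9 in KO and 135, 112 and 129 in WT (-1.03 ± 0.23, adjusted p = 0.733). Irf7, an interferon regulatory factor, had 732, 1099.7 and 1259.8 in KO and 1682, 1559.7 and 1689.6 in WT (-0.71 ± 0.21, adjusted p = 0.791). Ifi27 had 1921, 2674 and 3296 in KO and 4023, 4169.8 and 3993 in WT (-0.66 ± 0.20, adjusted p = 0.791). In these 3 genes all KO mice were below all WT mice, whereas Iigp1, an interferon-induced GTPase, was at 7119.7, 5819.9 and 7269 in KO and 6718, 6083 and 7379 in WT (0.00 ± 0.14, adjusted p = 0.999).

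On the leucine-free diet the same 36 genes had changes of the other sign. On LeuD at CT15 all 36 had a positive change with a median of 1.52, and 21 were called higher (1.19% of all genes), while 0 were called on Control at CT03 (18 positive, median 0.04, unadjusted p under 0.05 for 5 higher and 2 lower, against 4.34% and 3.84% of all genes) and 0 on LeuD at CT03 (32 positive, median 0.45, 9 higher against 6.75% of all genes). Irf7 had 2895, 5007 and 2013 in KO and 660.0, 681 and 1319 in WT on LeuD at CT15, against 702, 1058 and 1211 in KO and 1616, 1497 and 1628 in WT on Control at CT15 on the same scale. In the direct test of the diets, which uses the Control libraries again, the genotype effect on LeuD minus that on Control was 2.57 ± 0.47 for Irf7 (adjusted p = 0.0696) and 1.80 ± 0.29 for Irf9 (adjusted p = 0.0533). None of the 36 was called by that test, and 32 had an unadjusted p under 0.05 on the higher side, against 6.53% of all genes.

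**Figure D4:**
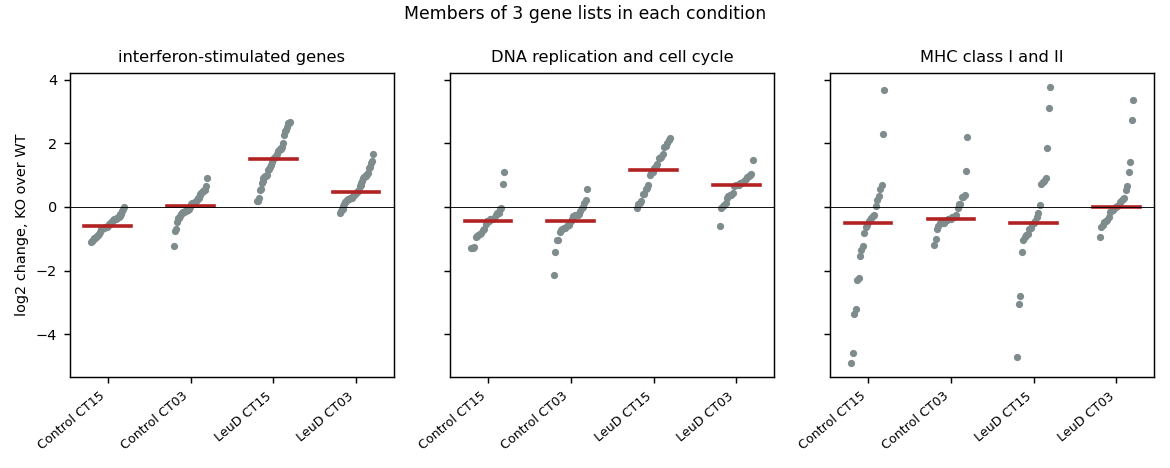
Log2 change (KO over WT) of each measured member (grey points, sorted) and the list median (red bar) for 3 gene lists in the 4 conditions. Interferon-stimulated genes had a median of -0.61 on Control and 1.52 on LeuD at CT15, and single MHC genes lay far from the median in both directions at CT15.

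The diet comparison called 3 of 14588 genes (0.0206%), and 1764 (12.1%) had an unadjusted p under 0.05. Mcm6, a subunit of the DNA replication helicase, differed by 2.85 ± 0.34 between the diets (adjusted p = 0.0341). It had 1065, 559 and 805 in KO and 214, 203 and 202 in WT on LeuD, and 136, 198 and 206 in KO and 358, 394 and 278 in WT on Control. Slfn9, a Schlafen family gene, differed by 3.28 ± 0.45 (adjusted p = 0.0475), with 377, 656 and 518 in KO and 96.9, 63.3 and 83.3 in WT on LeuD, and 42.0, 107 and 73.9 in KO and 109, 116 and 101 in WT on Control. Ugt3a2, a UDP-glycosyltransferase, differed by -1.22 ± 0.17 (adjusted p = 0.0475), with 6925, 5848 and 5446 in KO and 13187, 12364 and 13063 in WT on LeuD, and 13592, 13434 and 13900 in KO and 11709, 13687 and 12202 in WT on Control. The count was 2 and 3 without KO Control replicates 1 and 2, 9 and 19 without KO LeuD replicates 1 and 2, and 0 without KO replicate 3 of either diet or without any WT mouse, with 1301 to 1820 genes under an unadjusted p of 0.05 in those 8 fits.

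Most genes of DNA replication and the cell cycle, like Mcm6, had lower values in KO on Control at CT15. Of 24 measured, 0 were called, 22 had a negative change and 7 had an unadjusted p under 0.05 on the lower side (3.05% of all genes), with 1 on the higher (2.44%). Without KO replicate 1 these counts were 5 (2.73%) and 0 (1.88%). Mcm4, a further helicase subunit, had 124, 195 and 181 in KO and 307, 309 and 270.0 in WT (-0.85 ± 0.21, adjusted p = 0.791). Ccnd1, or cyclin D1, had 346, 713 and 565 in KO and 1178, 1003 and 775 in WT (-0.90 ± 0.29, adjusted p = 0.791). Ccne2, a cyclin of the entry into DNA synthesis, was the member on the higher side, at 141, 74.9 and 96.8 in KO and 68.2, 48.7 and 66.5 in WT (0.73 ± 0.29, adjusted p = 0.791). On LeuD at CT15, 4 of 24 were called higher (1.19% of all genes) and 17 had an unadjusted p under 0.05 on the higher side (10.4% of all genes).

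The integrated stress response, the pathway downstream of GCN2, showed 1 member past an unadjusted p of 0.05 and 0 called among 35 measured. The share past it was 2.86%, against 5.49% of all genes. The median change was 0.13, with 21 members positive and 14 negative, and without KO replicate 1 it was -0.08, with 12 positive and 23 negative. The member past it was Asns, or asparagine synthetase, which makes asparagine from aspartate and glutamine and is a textbook ATF4 target: it had 302, 691 and 1865 in KO and 169, 137 and 198 in WT (2.13 ± 0.59, adjusted p = 0.791), so each KO mouse was above each WT mouse while the KO mice spread widely. In the authors' deposited table its log2 change was 2.51, with an adjusted p of 0.000867. In the other mice the change was also positive: 1.13 ± 0.47 on Control at CT03 (adjusted p = 0.606), 1.67 ± 0.22 on LeuD at CT15 (adjusted p = 0.0158) and 1.91 ± 0.72 on LeuD at CT03 (adjusted p = 0.33).

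The Asns promoter is shown because it holds the known element through which ATF4 acts on this gene. It is at chr6:7693160-7693459 (GRCm38.p6, minus strand, RefSeq), printed 5′ to 3′ with the only match to the C/EBP-ATF element TGATGNAA in capitals. That motif, searched on both strands, is in 3.97% of 32851 promoters of this length.
Asns: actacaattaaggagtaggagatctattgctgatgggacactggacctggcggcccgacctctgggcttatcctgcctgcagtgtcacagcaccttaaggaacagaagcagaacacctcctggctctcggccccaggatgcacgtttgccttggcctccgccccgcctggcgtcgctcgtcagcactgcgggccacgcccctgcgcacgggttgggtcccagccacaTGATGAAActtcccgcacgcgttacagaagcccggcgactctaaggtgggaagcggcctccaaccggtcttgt

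Apart from Asns, Cth and Cebpg, all higher in each KO mouse, none of the 35 had groups without overlap, which 13.3% of all genes had. Atf4 had 3430.5, 6244 and 3885 in KO and 4201, 4809.7 and 3008 in WT (0.15 ± 0.27, adjusted p = 0.88). Ddit3, the pro-apoptotic factor CHOP, had 273, 569 and 308 in KO and 306, 367 and 288 in WT (0.19 ± 0.28, adjusted p = 0.861). Both overlapped between the groups. Trib3, a pseudokinase that restrains ATF4, had 272, 89.2 and 72.6 in KO and 66.4, 68.4 and 163 in WT (0.41 ± 0.56, adjusted p = 0.849). Fgf21, a hepatic hormone of nutrient stress, had 209, 41.8 and 60.0 in KO and 78.9, 65.3 and 32.3 in WT (0.55 ± 0.62, adjusted p = 0.83). For both, KO replicate 1 was the highest mouse, and without it the change was -0.17 for Trib3 and -0.13 for Fgf21. Atf5 (0.16 ± 0.29, adjusted p = 0.885), Psat1 (-0.53 ± 0.35, adjusted p = 0.791), Mthfd2 (0.43 ± 0.26, adjusted p = 0.791) and Chac1 (0.01 ± 0.97, adjusted p = 0.998) did not pass either. Of 16 genes for eIF2, its kinases, exchange factor and phosphatase subunits, 0 were called by limma and 0 had an unadjusted p under 0.05.

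Clock genes were not called. Of 21 measured, 0 reached an unadjusted p under 0.05, 9 were positive and 12 negative, and the median change was -0.05. Per2, a light- and feeding-responsive repressor of the clock, had 1019, 3507 and 2019.6 in KO and 1864, 3501 and 2295 in WT (-0.35 ± 0.45, adjusted p = 0.838). Per1, its paralog, had 2628, 392 and 925 in KO and 633, 552 and 614 in WT (0.72 ± 0.60, adjusted p = 0.798). Nr1d1, the repressor REV-ERB-alpha, had 207, 70.5 and 323 in KO and 373, 269.6 and 504 in WT (-1.14 ± 0.54, adjusted p = 0.791). The KO mice spread more widely than the WT mice for Per1, from 392 to 2628, and the groups overlapped for all 3. Dbp, a clock output factor, had 77.2, 217 and 708 in KO and 732, 371 and 973 in WT (-1.49 ± 0.76, adjusted p = 0.791). The clock activator Npas2 had 171, 68.2 and 21.0 in KO and 9.87, 46.7 and 3.91 in WT (2.23 ± 0.99, adjusted p = 0.791). Cry1 (0.59 ± 0.30), Arntl (0.61 ± 0.39) and Nfil3 (0.39 ± 0.26) each had an adjusted p of 0.791.

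The median change of lipid synthesis genes depended on 1 mouse. Of 22 genes of fatty acid and triglyceride synthesis 21 had a negative change (median -0.87), as did all 22 genes of cholesterol synthesis and uptake (median -0.83), yet 0 of the 44 were called by limma and 0 had an unadjusted p under 0.05. Fasn, the fatty acid synthase, had 2877, 130550 and 51225 in KO and 154080, 157180 and 66869 in WT (-2.13 ± 1.28, adjusted p = 0.791). Scd1, a desaturase, had 5644, 543060 and 820630 in KO and 1161600, 823560 and 676430 in WT (-2.67 ± 1.74, adjusted p = 0.791). Sqle, the squalene epoxidase of cholesterol synthesis, had 251, 5569 and 2774 in KO and 2817, 5912 and 3526 in WT (-1.30 ± 1.04, adjusted p = 0.793). KO replicate 1 was the lowest of the 6 in all 3, and without it the median changes of the lists were -0.23 for fatty acid and -0.02 for cholesterol synthesis. The change was then still negative for 20 of 22 fatty acid genes, and for 12 of 22 cholesterol genes.

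**Figure D5:**
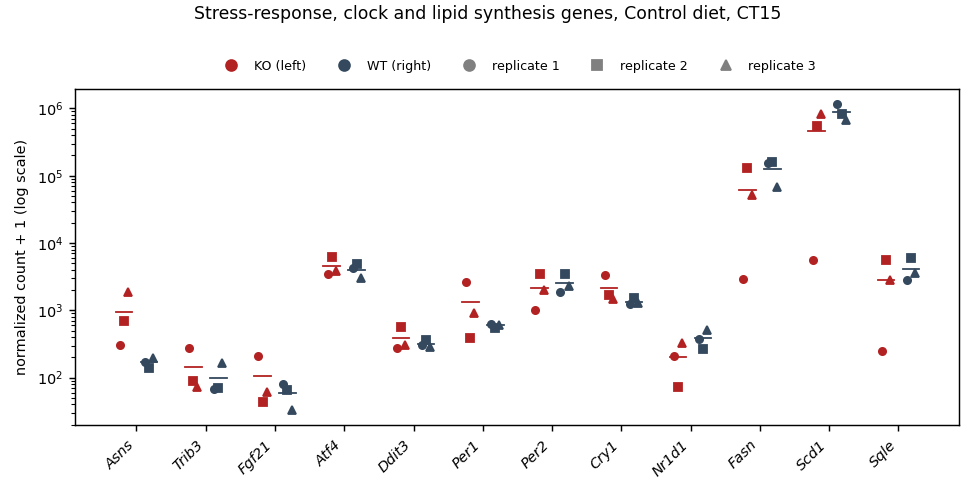
Normalized count + 1 (log axis) of stress response, clock and lipid synthesis genes in each library, KO (red, left) and WT (dark, right), with a bar at the group mean of 3 mice. Asns is higher in all 3 KO mice than in any WT mouse, whereas KO replicate 1 is the lowest of the 6 mice for Fasn, Scd1 and Sqle.

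Sex-biased liver genes, read as a check on the mice, were called in neither direction. Of 20 male-biased genes 17 had a negative change with all mice (median -0.35) and 19 a positive one without KO replicate 1 (median 1.10), and 0 had an unadjusted p under 0.05 with all mice. Cux2, a female-biased transcription factor, had 1590.5, 28.6 and 36.8 in KO and 27.8, 37.3 and 40.1 in WT (1.77 ± 1.41, adjusted p = 0.793). KO replicate 1 stood far above all others.

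Pancreas acinar genes had higher values in KO without being called. Of a list of 31, 20 were measured. Listed genes had at least 61 reads over a table's libraries, and WT mice held few acinar reads. Members may thus have been listed through their KO reads, those of KO replicate 1 most of all. Of the 20, 19 had an unadjusted p under 0.05 on the higher side (2.44% of all genes). Without KO replicate 1, 14 of the same 20 did so (1.88% of all genes). These shares are therefore not independent support. Try5, a trypsinogen, had 1067, 85.9 and 138 in KO and 63.7, 0 and 0 in WT (5.87 ± 1.73, adjusted p = 0.791). The lowest KO mouse was above the highest WT mouse. The share of reads from mitochondrially encoded genes was 5.716% to 6.315% in KO and 4.966% to 6.011% in WT. Of these 31 genes, 9 (29.0%) had an unadjusted p under 0.05 on the higher side, against 2.44% of all genes, with 0 called. The heat shock chaperone Hspa1b, which lies in the MHC region, had 341, 479.9 and 1568 in KO and 1631, 1701 and 1847 in WT (-1.44 ± 0.51, adjusted p = 0.791), and the other 15 measured chaperones had no unadjusted p under 0.05. An immunoglobulin transcript picked after its values were seen was not called: Ighm, the IgM heavy chain, had 278, 196 and 414 in KO and 846, 1035 and 872 in WT (-1.69 ± 0.27, adjusted p = 0.261). In the authors' deposited table the adjusted p was 1.5e-05 for Ighm. Of genes given above as not called, it was 2.92e-06 for H2-Q6, 1.64e-05 for H2-Q2, 1.09e-05 for Spg11 and 2.59e-05 for Capn3. There it was also 0.00128 for Tapbp, 0.00728 for Tap1, 0.0183 for Chp1, 0.0208 for H2-DMb1 and 0.0461 for Rmdn3.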

How the data were processed

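Per the labels' protocols, oligo(dT)-selected liver RNA went into libraries of the NEBNext Ultra II RNA kit. The submitters' processing notes name build GRCm39, DESeq and DESeq2, Subread 1.5.2 with featureCounts, STAR 2.5.2b and Trimmomatic 0.36. Settings, annotation and strand use are not stated there. The authors deposited tables that each compare a pair of groups. Per the file headers these give p-value and adjusted p, log2 fold change and library values, which from the values are a signal: gene counts divided by a size factor set per library in each table. Dividing by the value of 1 read gave whole numbers for 100% of values (tolerance 0.01), and 0 reads differed over 11 overlaps between tables. For 1 library whose size factor was near 1, reads were taken from another table. The 6 tables used list 14674 to 15073 genes, with at least 61 reads over a table's libraries. The 24 library columns in 4 further tables were not used. Depth over all libraries was 34135115 to 44883434 reads, and genes with few reads carry a counting error that can match the spread between mice.

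The main test was limma 3.58.1 with an intensity trend (R 4.3.3) on log2(normalized count + 1), 3 KO against 3 WT mice, 2-sided, with Benjamini-Hochberg adjustment over all genes and no filter. Such changes understate those of genes with few reads. The plan was written for this unit. Differences between times or diets came from 12 libraries and the values of 2 tables, over genes with a mean of at least 10 in one. The LeuD comparisons used recovered reads on 1 scale over 24 libraries, as did levels set across conditions. Alternatives were edgeR 4.0.16, DESeq2 1.42.0, other pseudocounts, filters and factors, the replicate number as a block, and each mouse left out. Same-numbered mice of the groups correlated at -0.07, 0.33 and 0.01, so the numbers were not taken as pairs. The smallest chi-square between mice of 1 group was 35.04 per degree of freedom. In simulated counts over 15031 genes, changes were put into 97 genes (2-fold) and 103 genes (4-fold), none of them with few reads. The CT15 test recovered 20.6% of the 2-fold and 92.2% of the 4-fold changes, and 10 of its 125 calls were false.

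Members, gene lists and named genes were chosen with earlier results of these data known. The naming rule took called genes, a fixed set of clock, stress and H2 genes, and the members of each list with the lowest p. Other genes named were chosen after their values were seen. Neighbours came from the GENCODE annotation of GRCm38, which placed 14993 genes. The files use GRCm39, so no gene coordinates are given beyond the RefSeq promoters.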

Additional observations from a re-analysis of the deposited data

Results flagged for a closer look

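The genotype effect on Control differed between the times, by limma's test of the difference, for 4 genes, all of the MHC: by -3.38 for H2-Eb1, -2.70 for H2-T22, -4.40 for H2-Q5 and -2.99 for H2-T23 (log2, CT15 minus CT03). In 5 of the fits with a mouse left out, 0 genes were called. The times hold different mice, and KO replicate 2 on Control at CT03 had WT levels of H2-T-ps and H2-T10. Time and differences among the KO mice cannot be told apart at these genes.

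At CT15 the genotype effect differed between the diets for 3 genes: by 2.85 for Mcm6, -1.22 for Ugt3a2 and 3.28 for Slfn9 (log2, LeuD minus Control). Groups of 3 mice are too small for a test of single outlying samples.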

How the results depend on the processing

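With 3 mice per group, 20.6% of simulated 2-fold changes and 92.2% of 4-fold changes were recovered over 15031 genes, so most changes near 2-fold were not detectable. The 12 calls of the genotype comparison were 48 with DESeq2 and with the authors' deposited adjusted p, each including the 12, and 20 with all 24 libraries in 1 fit. That fit held only the 14238 genes listed for all 24 libraries. Of the 12, only 7 had values on LeuD at CT15, so the others were not in that fit, and these 7 were called. Leaving out 1 mouse gave 3 to 9 calls. With the replicate block the number was 12, of which 7 were among the main 12. The 4 calls for time were 10 with DESeq2, 1 with the replicate block and 0 to 4 with a mouse left out. The 3 calls for diet were 298 with DESeq2, 81 with all 24 libraries, 1 with edgeR, 0 with the replicate block (1697 genes under an unadjusted p of 0.05), and 0 to 19 with a mouse left out. TMM factors moved the median change of all genes by 0.0015. Over 45 named genes and 709 alternatives, 628 kept direction and call, 40 lost and 26 gained a call, and 15, of 7 uncalled genes, turned sign. With a mouse left out these ranged from -0.11 to 0.32 for Atf4, -0.10 to 0.33 for Atf5, -0.99 to 0.80 for Chac1, -0.13 to 0.39 for Ddit3, -0.13 to 1.01 for Fgf21, -0.78 to 0.11 for Per2 and -0.17 to 0.83 for Trib3. Chac1 was also -0.0352 with a pseudocount of 8, -0.30 with edgeR, and -0.31 with DESeq2 and in the authors' deposited table. The cause of these differences was not tested.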
